A study of Mus musculus with 3 samples.

Results

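Paneth cells of mouse small intestinal crypts are described here in 3 single-cell RNA libraries, from Cdc42 knockout (KO), rescue and control mice. A cell barcode was kept if it had at least 500 genes, at least 1000 unique molecular identifiers (UMIs, each standing for 1 captured RNA molecule) and at most 20% mitochondrial UMIs. Paneth cells were chosen by their granule RNA: kept barcodes with no UMI of the leukocyte gene Ptprc in which Lyz1, Mptx2, Itln1 and all genes whose symbol starts with Defa made up at least 5% of UMIs. These values met the rule in 67 of 14387 barcodes, of which 8 lay in the KO library, 11 in the rescue library and 48 in the control library. Because the rule used these granule genes, their levels are given as a description only.

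Paneth cells sit at the base of the crypt between the stem cells. They pack alpha-defensins, lysozyme (Lyz1) and lectins into large apical granules and release them onto bacteria. In mice they also make stem cell niche ligands such as Wnt3, Egf and Dll4. Like goblet cells they arise from secretory progenitors, and Wnt signalling and Sox9 are needed for their formation.

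All mice were C57BL/6 adults, 2 to 3 months old, and carried Olfm4-IRES-eGFPCreERT2, an inducible Cre expressed from a stem cell gene, so recombination in a Paneth cell depends on its stem cell ancestry. The KO genotype added CDC42flox/flox. The rescue genotype added CDC42flox/flox, Yapflox/flox and Tazflox/+. The control genotype added CDC42+/flox, so it also carried 1 floxed Cdc42 allele. CDC42 is a small GTPase of cell polarity, and YAP (Yap1) and TAZ (Wwtr1) are transcriptional co-activators of the Hippo pathway. Crypts were dissociated with TripLE (3x) for 1 h and loaded on a 10x Chromium 3' v3 kit. Each genotype had 1 library, with the number of animals not stated, so no difference below was tested. All 95% intervals are exact and cover counting error only.

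The libraries held 85525811 UMIs over 4786 barcodes in the KO, 64355665 over 3449 in the rescue and 58433966 over 6152 in the control. The mitochondrial limit excluded 54.1%, 38.3% and 66.3% of barcodes in the KO, rescue and control. The barcodes that met the rule had a median of 30050 UMIs in the KO, 112117 in the rescue and 77168 in the control. Between 3 and 11 barcode sequences were shared by each pair of libraries, and 0 of them met the rule.

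The promoters of 6 granule genes are shown because the KO barcodes held RNA of Gm15284 and Gm14851 in quantity but 1 UMI of Gm10104, while all 3 were abundant in rescue and control cells; Lyz1, Itln1 and Mptx2 are the rule genes outside the defensin family. Each sequence is the 250 bases before the annotated start, from RefSeq on GRCm38.p6. Capitals mark CTTTG, the core letters of TCF/LEF binding sites, and TATAAA, searched on both strands, and the 2 motifs cannot overlap. Lyz1 has its window at chr10:117292869-117293118 (minus strand), Itln1 at chr1:171535295-171535544 (minus strand) and Mptx2 at chr1:173277757-173278006 (minus strand). Gm15284 (Defa30), Gm14851 (Defa38) and Gm10104 (Defa35) have theirs in the defensin cluster, at chr8:21134400-21134649 (plus strand), chr8:21096051-21096300 (minus strand) and chr8:21064788-21065037 (plus strand).
Lyz1: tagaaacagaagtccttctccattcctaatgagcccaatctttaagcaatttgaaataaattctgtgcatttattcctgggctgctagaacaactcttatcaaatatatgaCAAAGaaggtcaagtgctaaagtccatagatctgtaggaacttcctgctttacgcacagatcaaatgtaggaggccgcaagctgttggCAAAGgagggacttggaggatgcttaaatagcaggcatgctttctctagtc
Itln1: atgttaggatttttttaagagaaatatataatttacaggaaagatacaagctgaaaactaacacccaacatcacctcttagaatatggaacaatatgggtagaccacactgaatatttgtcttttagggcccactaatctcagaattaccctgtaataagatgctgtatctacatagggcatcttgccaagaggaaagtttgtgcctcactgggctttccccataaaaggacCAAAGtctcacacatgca
Mptx2: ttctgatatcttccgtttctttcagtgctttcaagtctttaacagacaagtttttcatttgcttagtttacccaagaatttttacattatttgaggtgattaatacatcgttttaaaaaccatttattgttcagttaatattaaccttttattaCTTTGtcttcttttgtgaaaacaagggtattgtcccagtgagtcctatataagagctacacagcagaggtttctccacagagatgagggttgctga
Gm15284: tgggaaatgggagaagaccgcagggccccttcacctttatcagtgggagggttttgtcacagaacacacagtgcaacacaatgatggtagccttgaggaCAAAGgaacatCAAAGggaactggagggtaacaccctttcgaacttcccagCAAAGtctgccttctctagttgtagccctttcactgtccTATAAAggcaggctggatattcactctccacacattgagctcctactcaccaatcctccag
Gm14851: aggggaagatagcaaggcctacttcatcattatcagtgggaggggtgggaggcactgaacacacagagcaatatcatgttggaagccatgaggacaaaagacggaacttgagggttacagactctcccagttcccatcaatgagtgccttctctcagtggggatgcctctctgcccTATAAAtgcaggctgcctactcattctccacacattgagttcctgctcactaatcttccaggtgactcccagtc
Gm10104: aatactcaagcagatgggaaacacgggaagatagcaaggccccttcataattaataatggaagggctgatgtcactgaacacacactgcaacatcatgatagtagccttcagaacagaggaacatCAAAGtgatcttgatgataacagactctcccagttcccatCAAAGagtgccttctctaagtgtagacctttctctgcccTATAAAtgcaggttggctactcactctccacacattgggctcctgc
Of 32 granule genes, 20 matched the RefSeq promoter table by symbol, and the 17 defensins among them had windows at 15 different positions. Some of these were identical in sequence (Defa21 and Defa22, Gm21498 and Gm14850, Gm7849 and Gm7861), so the counts below include the same sequence more than once. CTTTG was found in 11 of these 15 windows, against 48.6% of all 32851 promoters of that length. TATAAA was found in 14 of 15, against 12.4% of all promoters. The defensin windows are related copies with a median identity of 68.9% over 105 pairs, so they are not independent. Gm10104 and Gm15284 were 70.2% identical and held 2 and 3 CTTTG matches.

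Barcodes that met the rule made up 0.471% (0.204-0.927) of the 1697 kept barcodes without Ptprc in the KO, 1.10% (0.551-1.96) of 999 in the rescue and 7.80% (5.81-10.2) of 615 in the control. Relative to the control, the share was 16.6-fold (7.76-40.5) lower in the KO and 7.09-fold (3.63-15.1) lower in the rescue. The intervals of both shares lie below that of the control. Without the mitochondrial limit the KO share was 0.181 of the control share, against 0.0604 with it, and the rescue share was 0.3545 of it, against 0.141. The part of the unequal loss to this limit was not tested. A further 0 KO, 6 rescue and 5 control barcodes reached the 5% share but held Ptprc UMIs, and 2, 0 and 8 reached it over the mitochondrial limit.

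**Figure D1:**
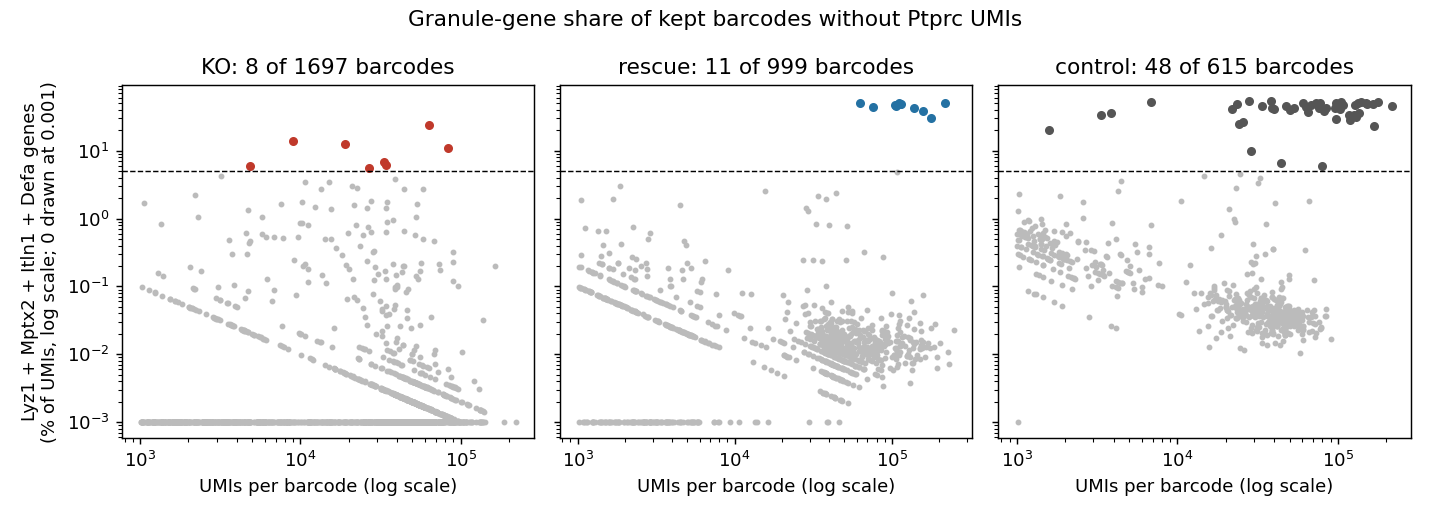
Each point is a kept barcode without Ptprc UMIs, by its UMIs (log scale) and by the share of UMIs from Lyz1, Mptx2, Itln1 and Defa genes (log scale, 0 drawn at 0.001), with the 5% limit dashed and the barcodes at or above it in colour. The 11 rescue cells lie between 30.6% and 51.1%, and 7 of the 8 KO barcodes lie between 5% and 20%.

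The rule genes held 5.52% to 23.8% of UMIs in the 8 KO barcodes (median 8.81%), 30.6% to 51.1% in the 11 rescue cells (median 47.3%) and 5.89% to 53.9% in the 48 control cells (median 42.4%). No KO barcode reached the lowest rescue cell. The barcodes nearest to the limit stood at 5.52% inside and 4.25% outside in the KO, 30.6% inside and 4.82% outside in the rescue, and 5.89% inside and 4.51% outside in the control. With the defensin genes whose symbols do not start with Defa added, the median was 15.5% in KO barcodes, 85.4% in rescue cells and 72.4% in control cells.

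The 8 KO barcodes went against the Paneth cell label. The goblet cell genes Muc2, Fcgbp, Tff3, Zg16 and Clca1, which encode mucus proteins and proteins secreted with them, held 9.23% to 36.1% of their UMIs (median 21.9%). The same sum was 0.0547% to 0.239% in rescue cells (median 0.0838%) and 0.0516% to 6.65% in control cells (median 0.178%). Every KO barcode lay above every rescue and control cell. Muc2, the gel-forming mucin, stood at 11306 CPM in KO barcodes, 809.6 CPM in rescue cells and 1135 CPM in control cells. CPM here are UMIs per 1000000 UMIs outside the rule genes, summed over the cells of a library. The 8 are called KO barcodes below, not Paneth cells.

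**Figure D2:**
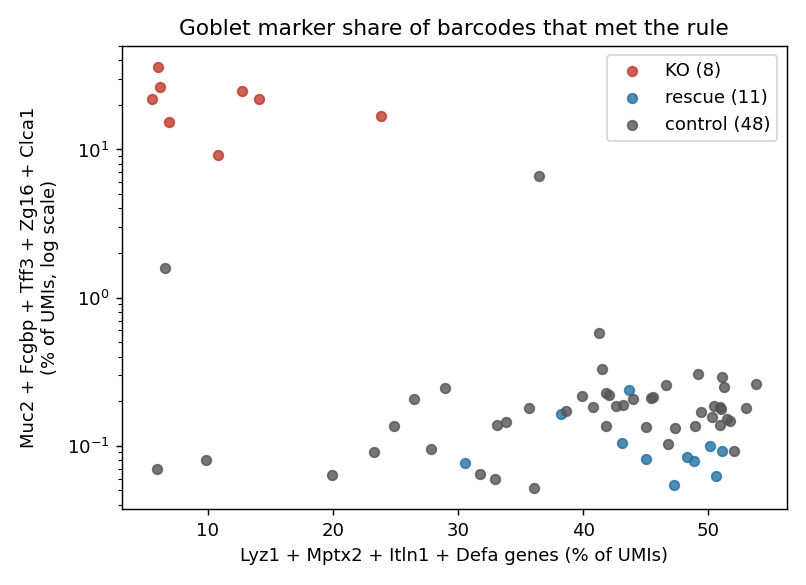
Share of UMIs from 5 goblet cell genes (log scale) against the share from the rule genes, 1 point per barcode, for 8 KO, 11 rescue and 48 control barcodes that met the rule. All KO points lie at 9.23% or more, above the highest control cell at 6.65%.

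Ordered by depth, the 8 KO barcodes held 4871, 8980, 18928, 26900, 33199, 34240, 63542 and 83798 UMIs. Their rule gene shares in that order were 6.02, 14.04, 12.7, 5.52, 6.86, 6.13, 23.8 and 10.8%, and their goblet shares 36.1, 21.8, 24.9, 21.9, 15.2, 26.3, 16.8 and 9.23%. Both signals were thus present in each of the 8. Defa24, the most abundant defensin, had 280, 937, 1932, 1244, 1990, 1651, 11796 and 7223 UMIs, and Lyz1 had 0, 199, 294, 170, 224, 285, 1874 and 1239. Gm15284 had 0, 680, 1406, 16, 16, 581, 7668 and 6915 UMIs, which left it at or near 0 in 3 of the 8.

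Several Paneth cell products that the rule did not use were low in the KO barcodes, but not all. The 8 such markers were Ang4, Mmp7, Clps, Habp2, Spink4, Nupr1, Pnliprp2 and Reg3g. They summed to 20853 CPM in KO barcodes, 50041 CPM in rescue cells and 43391 CPM in control cells. Their median share of UMIs per cell was 2.19% in KO barcodes, 2.91% in rescue cells and 2.54% in control cells. Ang4 (chr14:51763878-51773590, vM21 on GRCm38), an antimicrobial ribonuclease of the granules, stood at 266 CPM (205-339.8) in KO barcodes, 12025 CPM (11781-12273) in rescue cells and 12353 CPM (12209-12498) in control cells. Per cell it ran from 0 to 826 CPM (median 109) in KO barcodes, 3174 to 31553 CPM (median 10649) in rescue cells and 961 to 27067 CPM (median 12427) in control cells. KO barcodes did not overlap with either, and the KO level was 46.4-fold (36.3-60.3) lower than the control level. Mmp7, the protease that activates mouse pro-defensins, stood at 457 CPM in KO barcodes, 3821 CPM in rescue cells and 2855 CPM in control cells. Clps, colipase, stood at 711 CPM in KO barcodes, 6946 CPM in rescue cells and 9389 CPM in control cells. Both were thus lower in KO barcodes, Mmp7 by 6.24-fold (5.17-7.61) and Clps by 13.2-fold (11.4-15.4) against the control. Wnt3 had 0 UMIs in KO barcodes, 37 in 9 of 11 rescue cells and 130 in 39 of 48 control cells, which puts the KO level at least 4.56-fold lower than the control level with a floor of 3 UMIs over the library. The niche signals as a list did not follow Wnt3: of 4 measured, 2 stood at least 2-fold higher in KO barcodes than in control cells and 1 at least 2-fold lower (median log2 ratio 0.49). Measured genes had at least 20 UMIs in KO barcodes or control cells, and over all of them 1477 of 6410 (23.0%) stood at least 2-fold higher and 1724 (26.9%) at least 2-fold lower. The niche median is smaller than the shifts between scalings given with the regenerative genes. Dll4, a Notch ligand, stood 2.32-fold (1.08-4.57) higher on 11 UMIs in KO barcodes and 45 in control cells, and Lgals2, a galectin, 25.5-fold (23.6-27.5) higher. Rnase1, a secreted ribonuclease, had 0 UMIs in KO barcodes, 1211 in rescue cells and 1670 in control cells. Spink4, a small secreted protein of goblet and Paneth cells, was not low, at 18458 CPM in KO barcodes, 23216 CPM in rescue cells and 14691 CPM in control cells. It made up most of the KO sum of the 8 markers.

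Regenerative genes, which are raised in injured and fetal-like epithelium, stood high in the KO barcodes. Of 12 listed genes, 9 were measured. Of these, 8 were at least 2-fold higher and 0 at least 2-fold lower in KO barcodes than in control cells. Only 3 of the 12 reached the UMI minimum for measuring in rescue or control cells. The rest of the 9 were measured through their KO UMIs alone. Control cells had the larger total, 2287296 UMIs outside the rule genes, so this filter fixed those genes as higher. The count is thus partly built in, and at most 3 genes could have counted as lower. The KO levels come from 240497 UMIs outside the rule genes. S100a6, a calcium-binding protein, stood at 10807 CPM (10395-11230) in KO barcodes, 14.3 CPM (7.16-25.7) in rescue cells and 7.43 CPM (4.33-11.9) in control cells, and 8 of 8 KO barcodes lay above the highest control cell. Anxa10, an annexin, had 169 UMIs in KO barcodes, at least 2 in each, and 0 in rescue and control cells. S100a6 was not particular to the 8: the other kept barcodes without Ptprc stood at 5059 CPM in the KO, 95.4 CPM in the rescue and 79.7 CPM in the control. The median log2 ratio of KO over control over all genes was -0.02. It was -0.76, with 612 genes higher and 2802 lower, when the other defensin genes were left out of the totals, and 0.53, with 2472 higher and 1137 lower, with totals over all UMIs.

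Of 16 measured antimicrobial and secreted products 9 stood at least 2-fold lower in KO barcodes than in control cells and 2 at least 2-fold higher (median log2 ratio -2.16), the higher ones being Zg16 and the lectin Reg3b. Reg3b had at most 2 UMIs in any KO barcode, so its ratio rests on few UMIs. Of 18 measured fate and position factors 10 stood lower and 2 higher (median -0.97). Sox9 had 7 UMIs and 29.1 CPM in KO barcodes, against 236 CPM in rescue cells and 129 CPM in control cells. Ephb3, a receptor that keeps Paneth cells at the crypt base, had 2 UMIs in KO barcodes, 41 in rescue cells and 161 in control cells. Bhlha15 (Mist1), a factor of secretory cell architecture, had 0 UMIs in KO barcodes, 40 in rescue cells and 62 in control cells. The factors that stood higher were Atoh1, which specifies secretory cells, with 40, 19 and 13 UMIs, and Spdef, a goblet and Paneth factor. Atoh1 was measured through its KO UMIs alone, and control cells had the larger UMI total. The filter thus fixed Atoh1 as higher. Spdef stood at 179 CPM in KO barcodes, 33.9 CPM in rescue cells and 56.4 CPM in control cells. Agr2, a disulfide isomerase needed for mucin, stood at 8478 CPM in KO barcodes, 637 CPM in rescue cells and 732 CPM in control cells. A count of 0 in the KO barcodes allows up to 12.5 CPM.

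Fewer defensin genes reached 20 UMIs in the KO barcodes, which also had the fewest UMIs, and the part of depth in this was not tested. Of 29 defensin genes in the files, 11 had at least 20 UMIs in KO barcodes, 24 in rescue cells and 24 in control cells, with 274458 UMIs in KO barcodes, 1381885 in rescue cells and 3905817 in control cells behind these counts. Defensins held 19.4% of UMIs in KO barcodes, 67.3% in rescue cells and 60.6% in control cells. Defa24 gave 50.9%, 45.4% and 47.6% of the defensin UMIs of KO, rescue and control, and the 5 most abundant defensins together 99.1%, 93.9% and 96.2%. Per 100 Defa24 UMIs, Gm15284 gave 63.9 in KO barcodes, 66.7 in rescue cells and 59.1 in control cells. Gm10104 gave 0.00370, 3.03 and 1.12, so these genes did not keep 1 ratio. The KO value of Gm15284 is summed over unlike barcodes. The deepest ones held 7668 and 6915 of its 17282 UMIs, and 3 of the 8 were at or near 0. Gm15292 (Defa40) and Gm15299 (Defa27) had 0 UMIs in KO barcodes, 3757 and 2578 in rescue cells and 11263 and 5940 in control cells. With each cell thinned to 2000 UMIs, Defa17 was found in 0 of 8 KO barcodes, 11 of 11 rescue cells and 46 of 47 control cells, with 1 shallower control cell left out, and unthinned in 3, 11 and 48.

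Defensin transcripts resemble each other, which limits the values of single genes. Of the 50-base windows of Gm10104 59.9% also occur in another listed granule gene, as do 52.4% of those of Gm15284, 91.95% of those of Defa17 and 28.1% of those of Defa24. The sources used here do not say how reads that match several genes were counted. Lyz1 shares 16.1% of its windows with the macrophage lysozyme Lyz2.

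**Figure D3:**
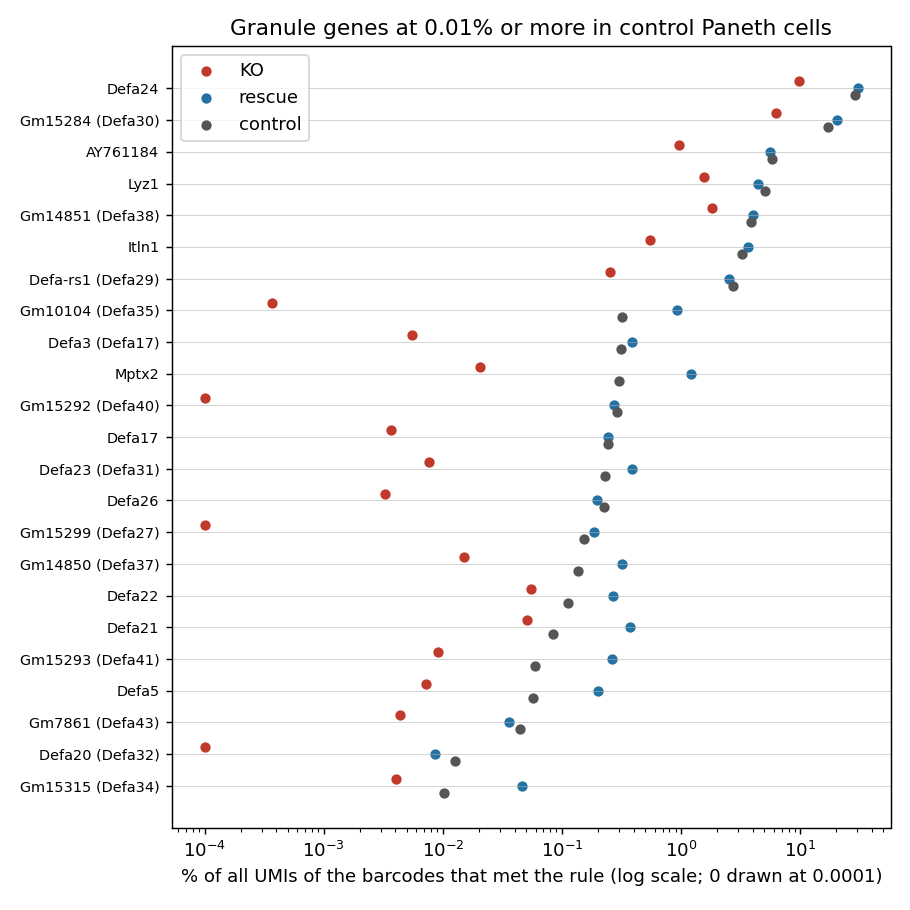
Share of all UMIs (log scale, 0 drawn at 0.0001) held by each granule gene in KO barcodes, rescue cells and control cells, summed over cells, for genes at 0.01% or more in the control. KO points are the lowest for every gene drawn, while rescue points lie both above and below control points.

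Free RNA of these genes was low. In Ptprc-positive cells of the same libraries, which should lack defensins, they held 0.00123% of UMIs in the KO, 0.0522% in the rescue and 0.162% in the control, at median depths of 5492, 5153 and 5231 UMIs. Ptprc-positive cells are here and below those under the 5% share of rule genes. The 6 rescue and 5 control barcodes with Ptprc UMIs at or above it were left out, so these values leave out the highest ones. Below the limit, 25 KO barcodes carried between 1% and 5% of rule genes, and all 25 were among the 194 with at least 2% goblet UMIs, a value chosen after seeing the data. Under 2% goblet UMIs it was 0 of 1495. In the rescue these counts were 6 of 35 and 5 of 953, and in the control 9 of 58 and 7 of 509. A doublet score, used in an alternative only, marked 1 of the 8 KO barcodes, 1 of 11 rescue cells and 0 of 48 control cells, and whether the other KO barcodes hold more than 1 cell was not tested.

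The 11 rescue cells carried the most abundant granule genes at shares near those of control cells. Defa24 (chr8:21734494-21735471) held 30.6% of UMIs in rescue cells and 28.8% in control cells, Lyz1 4.46% and 5.05%, and Itln1, an intelectin, 3.67% and 3.24%. Mptx2, a mucosal pentraxin, was the rule gene outside the defensins that differed most, with 1.21% in rescue cells and 0.302% in control cells. Its share per cell ran from 0.0112% to 2.76% in rescue cells (median 0.890%) and from 0 to 1.58% in control cells (median 0.194%), so the ranges overlapped.

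Over all genes measured in rescue or control cells, 63 of 6368 (0.989%) stood at least 2-fold higher in rescue cells and 1164 (18.3%) at least 2-fold lower. Rescue cells had 767071 UMIs outside the rule genes and control cells 2287296, so weakly expressed genes were measured mainly through the control cells. This filter favours lower over higher counts, and its part in the difference was not tested. The median log2 ratio of rescue over control was -0.29. It was 0.01, with 215 genes higher and 720 lower, when defensin genes outside the rule were left out of the totals. Ratios below keep the first scale, and list medians are set against -0.29.

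Of 16 measured antimicrobial and secreted products 2 stood at least 2-fold higher and 4 at least 2-fold lower in rescue cells (median log2 ratio 0.04). Ang4 had a rescue over control ratio of 0.973 (0.951-0.997) and Mmp7 one of 1.34 (1.28-1.40). Clps stood at 0.740 (0.718-0.762) of the control level, and Pnliprp2, a lipase, at 0.595 (0.545-0.650). Ccl6, a chemokine, had a ratio of 1.32 (1.24-1.40), and Pglyrp1, which binds peptidoglycan, one of 1.09 (0.978-1.22). None of these 6 passed the 2-fold line. The lower ones were Nupr1, Guca2a, Tnf and Zg16, and the higher ones were Reg3g and Reg3b, which are described below. Guca2a, guanylin, had a ratio of 0.367 (0.288-0.462).

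Defensin genes outside the rule included 5 of 14 measured at least 2-fold higher in rescue cells and 0 at least 2-fold lower (median log2 ratio 0.35, which is 0.65 above that of all genes). Gm15315 (Defa34) stood 4.72-fold (4.16-5.36) higher, Gm15293 (Defa41) 4.68-fold (4.44-4.93) and Gm10104 3.04-fold (2.96-3.11). Gm10104 ran from 189.8 to 36127 CPM (median 14825) over rescue cells and from 0 to 20423 CPM (median 3084) over control cells, and 10 of 11 rescue cells lay above the control median. Gm15293 lay above the highest control cell in 7 of 11 rescue cells. Other members had nearly equal levels, with a ratio of 0.995 (0.958-1.03) for Gm15292 and 1.02 (1.01-1.03) for AY761184. The part of the shared windows in these ratios was not tested.

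Niche ligands did not pass the 2-fold line in any of 4 measured genes, and their median log2 ratio was -0.28. Wnt3 (chr11:103774150-103817957) stood at 48.2 CPM (33.96-66.5) in rescue cells and 56.8 CPM (47.5-67.5) in control cells, a ratio of 0.849 (0.572-1.23). Per cell it ran from 0 to 136 CPM (median 40.6) in rescue cells and 0 to 250.3 CPM (median 51.1) in control cells. Dll4 had 10 UMIs in rescue cells and 45 in control cells, a ratio of 0.663 (0.298-1.33), and Egf had 4 and 15. The intervals of Wnt3 and Dll4 include 1.

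Of 17 measured fate and position factors 1 stood at least 2-fold higher and 3 at least 2-fold lower in rescue cells (median log2 ratio -0.36). The higher one was Foxa2, a forkhead factor, with 17 UMIs in rescue cells and 21 in control cells. The lower ones were Hes1, a Notch target, at 0.430 (0.279-0.642) of control, Foxa1 at 0.404 (0.207-0.724) and the Wnt receptor Fzd5 at 0.411 (0.170-0.865). Sox9 stood 1.82-fold (1.51-2.20) higher and Bhlha15 1.92-fold (1.26-2.91) higher in rescue cells. Of 29 measured genes of the secretory machinery 1 stood higher and 1 lower, and the median log2 ratio was 0.18, which is 0.48 above that of all genes. The higher one was Sdf2l1, an endoplasmic reticulum chaperone cofactor, at 74.3 CPM in rescue cells and 34.5 CPM in control cells. Dnajc3, a co-chaperone, had a ratio of 1.82 (1.45-2.28) and Pdia6, a disulfide isomerase, one of 1.79 (1.46-2.20). The lower one was Slc30a2, a zinc transporter, at 0.416 (0.207-0.765) of control, on 12 UMIs in rescue cells and 86 in control cells. Of 6 measured sensing, autophagy and death genes 0 passed the 2-fold line.

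**Figure D4:**
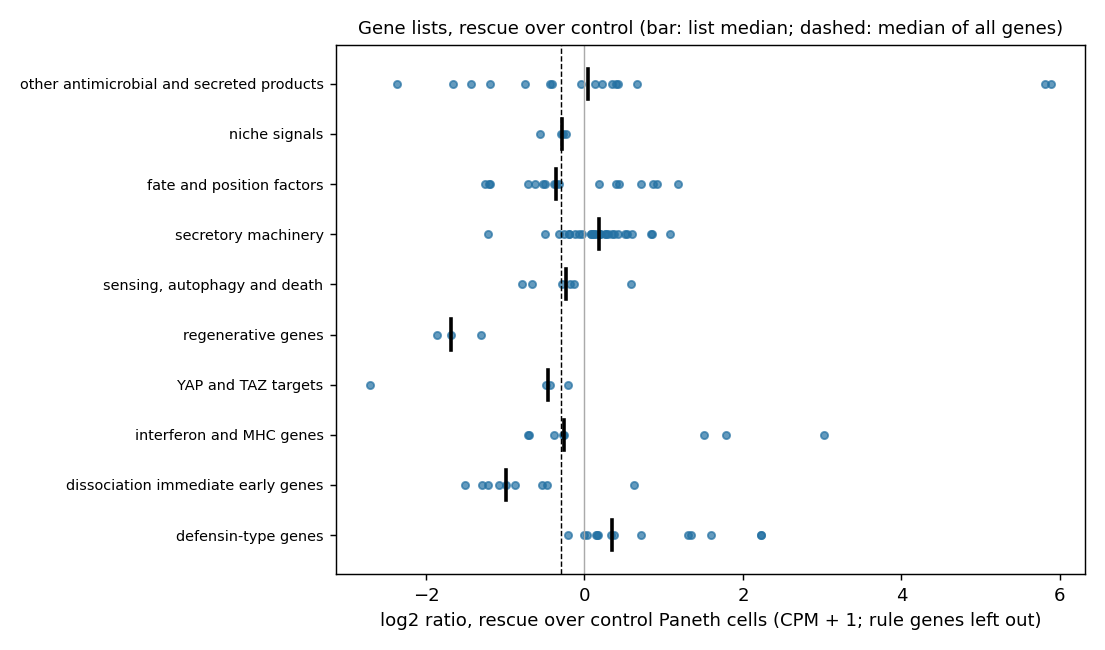
Log2 ratio of rescue over control Paneth cells for every measured gene of 10 lists, with the list median as a bar, 0 as a grey line and the median of all genes (-0.29) dashed. The medians of the secretory machinery (0.18) and of the defensins outside the rule (0.35) lie right of the dashed line, and those of the regenerative genes (-1.68) and immediate early genes (-0.99) left of it.

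Immediate early genes, which tissue dissociation induces, stood lower in rescue cells in 4 of 9 measured genes and higher in 0 (median log2 ratio -0.99). Atf3 stood at 408 CPM in rescue cells and 1162 CPM in control cells, a ratio of 0.351 (0.311-0.395), and Fosb had a ratio of 0.406 (0.354-0.464). Nupr1, a stress-induced chromatin protein, stood at 1134 CPM in rescue cells and 2603 CPM in control cells. The median mitochondrial share of the cells was 1.43% in the rescue and 5.28% in the control, and its part in these levels was not tested. Of 3 measured regenerative genes 3 stood lower: Cldn4, a claudin, at 0.311 (0.262-0.367) of control, Anxa2 at 0.258 (0.115-0.509) and Cd55, a complement inhibitor, at 0.361 (0.0930-1.02). The interval of Cd55 includes 1, and weakly expressed genes were measured mainly through the control cells. Of 4 measured YAP and TAZ targets 1 stood lower. It was Cyr61, a matricellular protein, at 31.3 CPM in rescue cells and 209 CPM in control cells, a ratio of 0.149 (0.0948-0.225). The other kept barcodes without Ptprc had 35.9 CPM of Cyr61 in the rescue and 227 CPM in the control.

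Outside the lists, the 10 genes lowest in rescue over control cells were Gm8730, Gem, Gm26917, Gadd45a, Acta1, Ifrd1, Tuft1, Gdf15, Edn1 and Ncoa7, with ratios from 0.0159 to 0.0898. Gadd45a and Gdf15 are stress-response genes, and Edn1 encodes endothelin. Gm8730 stood at 9.13 CPM in rescue cells and 574 CPM in control cells. In Ptprc-positive cells it stood at 19.6 CPM in the rescue and 923 CPM in the control. Gm26917 stood at 97.8 CPM in rescue cells and 2757 CPM in control cells, and at 284 and 3539 CPM in Ptprc-positive cells. The differences of Gm8730 and Gm26917 were thus present in cells of another type as well. In the other kept barcodes without Ptprc, Gem stood at 2.19 CPM in the rescue and 23.2 CPM in the control. Edn1 (37.7 and 243), Gadd45a (95.3 and 272), Acta1 (34.3 and 183), Ifrd1 (88.8 and 239), Tuft1 (11.2 and 34.5) and Ncoa7 (20.7 and 66.6) were also lower there. Gdf15 differed less, at 10.1 and 13.6 CPM. In Ptprc-positive cells Acta1 (15.3 and 13.5), Ncoa7 (29.2 and 26.6) and Gdf15 (4.35 and 2.00) were not lower. The rescue file header names a later Cell Ranger version than the control header, and its part was not tested.

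Among the 10 highest was Wfdc18 (chr11:83709015-83711348), a small secreted protein with a whey acidic protein domain. It stood at 159 CPM (132-189.9) in rescue cells, on 122 UMIs, and 1.31 CPM (0.270-3.83) in control cells, on 3 UMIs. All 11 rescue cells had 3 to 28 UMIs, 3 of 48 control cells had any, and 11 of 11 rescue cells lay above the highest control cell. KO barcodes had 6 UMIs. The other kept barcodes without Ptprc stood at 12.9 CPM in the KO, 0.534 CPM in the rescue and 0.674 CPM in the control. Lgmn, a lysosomal protease, stood 2.85-fold (2.29-3.54) higher, with 7 of 11 rescue cells above the highest control cell. Cfi, complement factor I, stood 2.89-fold (2.02-4.13) higher, Ndrg3 3.69-fold (2.35-5.81), Pld1, a phospholipase, 2.71-fold (1.72-4.26), and Cldn2, a claudin of crypts, 2.64-fold (1.89-3.69). In Ptprc-positive cells Lgmn stood at 20.8 CPM in the rescue and 5.0 CPM in the control. There Cfi stood at 7.69 and 0.999 CPM, Pld1 at 26.3 and 6.99, Cldn2 at 35.3 and 6.99 and Ndrg3 at 33.3 and 28.1. In the other kept barcodes without Ptprc, Lgmn stood at 11.5 and 10.8 CPM and Cldn2 at 71.6 and 37.3. Apart from Ndrg3, these genes were thus also higher in rescue Ptprc-positive cells. Dmbt1, a mucosal scavenger protein, stood at 167 CPM in rescue cells and 52.9 CPM in control cells, but at 1137 CPM in rescue Ptprc-positive cells. H2-Eb1, an MHC class II gene, stood at 69.1 CPM in rescue cells and 13.6 CPM in control cells, and at 176 CPM in rescue Ptprc-positive cells. A single rescue cell held 99.8% of the rescue UMIs of Hba-a2, an alpha globin, and 72.7% of those of Bpgm.

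Reg3g and Reg3b, antibacterial C-type lectins, also reached high levels outside the Paneth cells. Reg3g stood at 1944 CPM in rescue cells and 33.7 CPM in control cells, and at 2626 and 27.97 CPM in the Ptprc-positive cells of these libraries. Reg3b stood at 1099 CPM in rescue cells and 17.5 CPM in control cells, and at 4138 and 85.3 CPM in Ptprc-positive cells. The other kept rescue barcodes without Ptprc had 6683 CPM of Reg3g and 13454 CPM of Reg3b. Per rescue Paneth cell, Reg3g had 13 to 370 UMIs (median 123), and all 11 cells had some. The part of free RNA in these levels was not tested, and the median depth was 112117 UMIs in rescue Paneth cells and 5153 in rescue Ptprc-positive cells. H2-Aa, H2-Ab1 and Cd74, which serve MHC class II antigen presentation, were the 3 of 8 measured interferon and MHC genes that stood at least 2-fold higher in rescue cells. H2-Aa stood at 63.9 CPM in rescue cells and 6.995 CPM in control cells, and at 137 CPM in rescue Ptprc-positive cells, some of which can express these genes themselves. Cd74 had 0 to 79 UMIs per rescue cell (median 1), and 1 cell held 42.2% of its UMIs. The source of these UMIs was not tested.

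**Figure D5:**
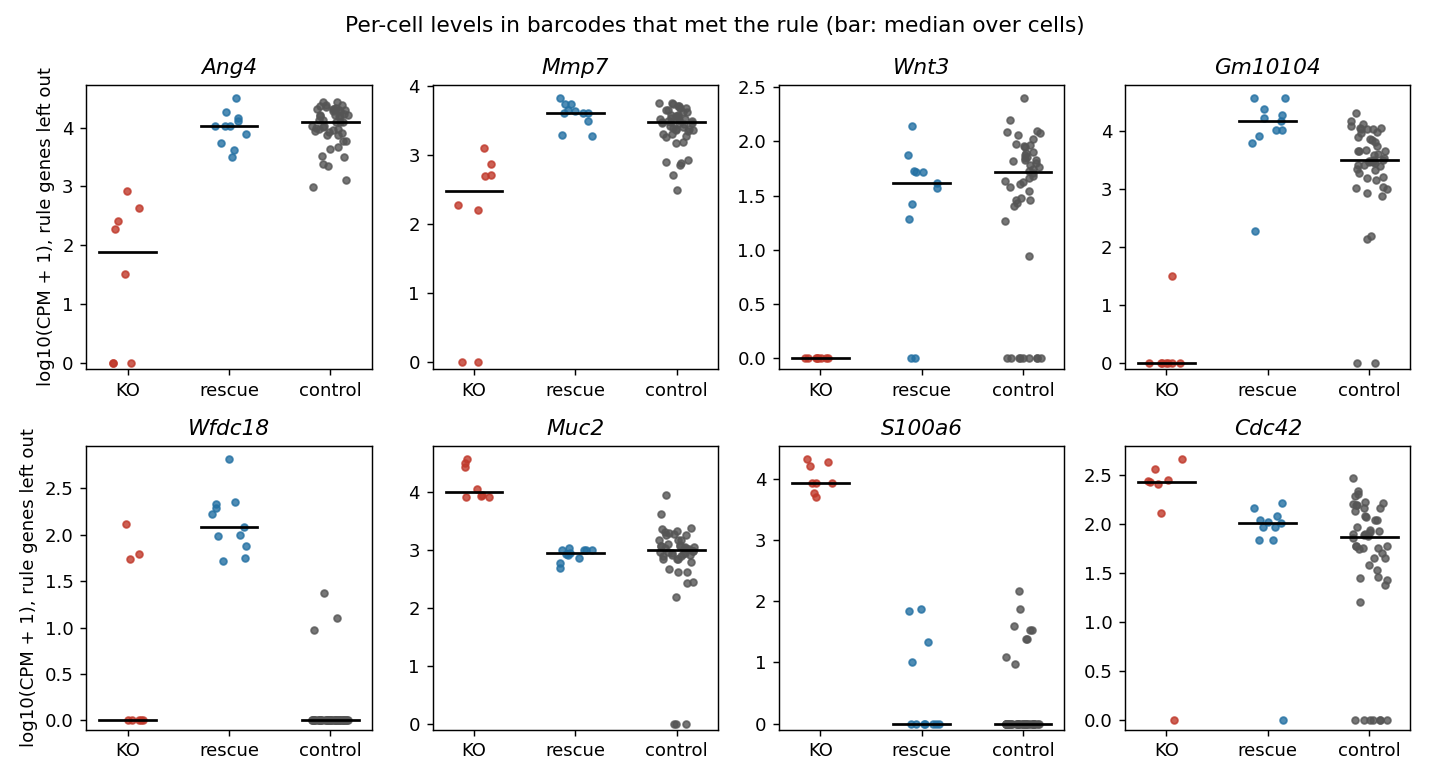
Per-cell levels of 8 genes as log10(CPM + 1), with rule genes left out of the totals, for 8 KO, 11 rescue and 48 control barcodes, with the median over cells as a bar. Muc2 and S100a6 are high in KO barcodes, Ang4 is low there, and Wfdc18 has UMIs in all 11 rescue cells and 3 of 48 control cells.

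The genes targeted in the mice had few UMIs. Cdc42 (chr4:137319696-137357720) stood at 295 CPM (231-372) in KO barcodes, 104 CPM (82.7-129.8) in rescue cells and 98.8 CPM (86.3-113) in control cells. Yap1 had 6, 11 and 46 UMIs in KO, rescue and control, and Wwtr1 had 4, 3 and 23. The rescue over control ratio was 1.06 (0.807-1.37) for Cdc42, 0.713 (0.333-1.40) for Yap1 and 0.389 (0.0748-1.29) for Wwtr1, so no difference was detectable at this depth. The labels do not say which exons are removed, and reads from the 3' end would not show the loss of an upstream exon, so these values do not check the genotypes.

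Control Paneth cells varied in their granule share. Of the 48, 39 carried at least 30% of rule genes and 4 less than 20%. Across these cells of 1 library, which share its free RNA, a higher rule share went with a lower mitochondrial share (Pearson r = -0.71, Spearman rho = -0.75) and showed little relation to UMIs (r = 0.20, rho = 0.19). The rule and mitochondrial shares are parts of the same UMI total, and the rule share also chose the cells. A negative relation between them is thus in part built in, and how large that part is was not tested. The highest cell of each gene held 99.1% of the Clca1, 84.3% of the Zg16 and 66.3% of the Fcgbp UMIs of the control cells, so the control levels of these goblet genes rest largely on single cells.

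The 8 T cell markers summed to 4.16 CPM in KO barcodes, 102 CPM in rescue cells and 108 CPM in control cells, against 12692, 26339 and 44286 CPM in Ptprc-positive cells. The 6 enteroendocrine markers were at 0 in KO barcodes and summed to 24.8 CPM in rescue cells and 35.4 CPM in control cells. The 5 stem cell markers summed to 24.9 CPM in KO barcodes, with Lgr5, Olfm4, Ascl2 and Smoc2 at 0, to 508 CPM in rescue cells and to 603 CPM in control cells. The other kept barcodes without Ptprc had 59.6 CPM of these in the KO, 254 CPM in the rescue and 753 CPM in the control, so the rescue sum was above that of the other rescue barcodes and the control sum below that of the other control barcodes. Without the cell that held most of them, the rescue sum was 381 CPM. The 7 enterocyte markers summed to 11218 CPM in KO barcodes, 438 CPM in rescue cells and 2030 CPM in control cells. The KO sum rested on the deepest barcode, which held 90.7% of these UMIs, and without the highest cell of each library the sums were 1509, 419.7 and 1125 CPM in KO, rescue and control. Compared without these cells, the KO sum thus still lay above the control sum.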

How the data were processed

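Each library is a deposited matrix of UMI counts per gene and barcode, raw and unnormalized, made by the authors with Cell Ranger, given as version 1.3.0 per the submitters' processing notes and as 3.0.2 (KO, control) and 3.1.0 (rescue) per the file headers. A genome build was not found in the labels or headers. Of 28692 gene identifiers 28339 matched GENCODE vM21 (GRCm38), the source of the gene coordinates. Groups followed the labels.

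UMIs were summed over the barcodes that met the rule and scaled to 1000000 UMIs outside the rule genes (CPM). Levels have exact Poisson, shares Clopper-Pearson and ratios conditional exact binomial 95% intervals. A gene was measured at 20 or more UMIs in either library compared, 2-fold was the line for counts, and log2 ratios used a pseudocount of 1 CPM. Named genes were the rule genes, the targeted genes, list members with 20 UMIs, the 15 genes highest in control Paneth cells over other control cells, and the 10 highest and 10 lowest in rescue over control at 50 CPM or more with an interval excluding 1, outside the lists and without sex-linked, mitochondrial, ribosomal and immunoglobulin genes. Rnase1, Anxa10, Tff1 and Hbb-bs were chosen after their values were seen. The members and lists were chosen with earlier results of these data known. The ratio step was tested on simulated counts. Python 3.11.15, numpy 2.4.6, scipy 1.17.1, pandas 2.3.3 and scikit-learn 1.9.0 were used.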

Additional observations from a re-analysis of the deposited data

How the results depend on the processing

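Settings of the cell rule, the scaling and the gene filter were changed 1 at a time. No paired analysis was possible because each group has 1 library, and for the same reason no replicate could be left out. Of 346 summary values 304 stayed close to the first value. The 346 include 206 medians, of which 17 changed sign; the 2 widest such changes, of the fate and secretory medians, came with thinning, and 9 were of the antimicrobial median, which lay near 0. Of 2322 gene ratios 2234 stayed close, and 11 of genes past the 2-fold line turned. The cause was not tested for these.

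The KO count of 8 became 18 at a limit of 2%, 4 at 10%, 1 at 20%, and 0 without Defa genes in the sum or without barcodes of 2% goblet UMIs. The rescue count of 11 became 17 with no limit on Ptprc, and the control count of 48 became 179 at 200 genes with no UMI minimum. The KO over control ratio of shares, 0.0604, became 0.008236 at 20%, 0.1811 without the mitochondrial limit, 0 without Defa genes or goblet-rich barcodes, and 0.1306 over all kept barcodes. The rescue ratio, 0.1411, became 0.3545 without the mitochondrial limit. The median KO rule share became 4.02% at 2%.

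Genes at least 2-fold higher in rescue cells numbered 63, but 169 at 2%, 117 with no limit on Ptprc, 155 without Defa genes, 5 after thinning to 2000 UMIs, 29 at 50 UMIs, 148 with the other defensins added to the sum and 215 scaled without them. Those lower numbered 1164, but 747 with no limit on Ptprc, 592 without Defa genes, 73 after thinning, 455 at 50 UMIs and 720 scaled without the other defensins. The median of all genes became -0.004233 without Defa genes, -0.6452 after thinning and 0.01133 scaled without the other defensins.

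The niche median became 0.296 at 2% and 0.02599 scaled without the other defensins, which changed its sign, -0.1458 with no limit on Ptprc and -0.9975 after thinning. The secretory median became 0.5539 at 2%, -1.012 after thinning, which changed its sign, 0.4126 with the other defensins added and 0.5004 scaled without them. The regenerative median became -1.136 at 2% and -1.299 after thinning. After thinning the fate median changed sign to 0.4846 and the interferon and MHC median -0.8635, and scaled without the other defensins the YAP and TAZ median became -0.1768. Thinning turned the log2 ratios of Cd74 (-5.2), Foxa2, H2-Ab1 and Sdf2l1 (-4.238 each), Fzd5 and Slc30a2 (1.199 each). At 2% Anxa2 (0.001195), Guca2a (0.6257) and Zg16 (1.052) turned, and Zg16 also without Defa genes (0.1734) and without goblet-rich barcodes (0.239). The settings without goblet-rich barcodes, with other defensins added, scaled without them and over all kept barcodes, and the marker sums without the highest cell, were chosen after seeing the data.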

Other observations

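Xist had 52 UMIs in KO barcodes, 242 in rescue cells and 0 in control cells, and the Y-linked Ddx3y had 0, 0 and 119. By these genes the control library differs in sex from the KO and rescue libraries, so sex and genotype cannot be told apart.

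Haemoglobin RNA was concentrated in 1 rescue cell, which held 3731 of the 3748 Hbb-bs UMIs of the rescue cells. KO barcodes had 3 Hbb-bs UMIs and control cells 68.

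Tff1, a trefoil peptide of gastric mucus, had 679 UMIs in KO barcodes, of which 678 lay in 1 barcode, and 0 in rescue and control cells.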
